A study of Mus musculus with 10 samples.

Results

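The glial and neuronal intermediate filament genes are 9 genes of 18193 measured in the hemisphere on the operated side of the mouse brain, 24 h after stroke or sham surgery. Gfap, Vim, Nes and Synm were taken as the 4 glial filament genes and Nefl, Nefm, Nefh, Ina and Prph as the 5 neuronal ones, by gene symbol. Each gene was read from the probe set, of those annotated with that symbol alone, that had the highest mean over the 10 arrays. All 9 genes were measured and none was lost to a filter.

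Stroke was modelled by middle cerebral artery occlusion (MCAO), which blocks the main artery of one hemisphere. There were 3 samples of Hsp72Tg MCAO, 3 of WT MCAO, 2 of Hsp72Tg sham and 2 of WT sham, all from male mice, with 1 array of total RNA per sample. Hsp72Tg mice carry a transgene that overexpresses Hsp72, the inducible heat shock protein, and WT mice are wild type. The sources used here give no promoter or construct for the transgene, and no strain or age of the mice. The sham mice of each genotype are the controls of its MCAO mice, and the series asks how Hsp72 bears on astrocyte activation after stroke. Samples are named below by group and replicate number.

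Intermediate filaments are rope-like polymers that give cells mechanical strength, and each cell type builds them from its own set of proteins. Astrocytes make them from GFAP and vimentin, joined by nestin and synemin in development and after injury, and more of these proteins is a textbook sign of reactive astrocytes. Neurons build neurofilaments from light, medium and heavy chains with alpha-internexin or peripherin, and neurofilaments set the width of large axons. Vimentin is also made by endothelial cells, fibroblasts and macrophages, and nestin by endothelial cells and neural progenitors. The RNA here came from whole hemisphere tissue, in which fewer cells of a type and less RNA per cell cannot be told apart.

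The values are log2 expression values, on which a difference of 1 is a 2-fold difference in signal. A gene passed when its adjusted p was under 0.05 in limma, a linear model with a shared estimate of variance, after Benjamini-Hochberg adjustment over all 18193 genes. The 2 arrays that stand apart bear on several results. Hsp72Tg MCAO 1 lay at -12.9 on the first principal component (50.3% of the variance), where the other 5 MCAO arrays lay between 11.7 and 32.3 and the sham arrays between -23.7 and -20.7. WT sham 1 read 9.46 for the cerebellar receptor subunit Gabra6, against 4.15 to 4.49 in the other 9 arrays. Of the genes for Hsp72, Hspa1a read 8.28 and 8.53 in Hsp72Tg sham, against 8.54 and 8.45 in WT sham, and Hspa1b read 9.12 and 9.15, against 9.38 and 9.48. After MCAO, Hsp72Tg minus WT was 0.84 for Hspa1a (SE 0.52) and 0.56 for Hspa1b (SE 0.41), with overlapping arrays and a limma adjusted p = 1 for each. Neither gene therefore differed past the threshold between genotypes, and these values do not settle the genotype labels.

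The promoters of the 2 filament genes that passed over both genotypes are shown. Nes was also higher in every MCAO array but did not pass, and its window is not shown. The windows run from 250 bases before to 50 bases after the RefSeq start site, in build GRCm38.p6, and 6 of the 9 genes had 1. Capitals mark matches to a STAT motif (TTCNNNGAA) in Gfap and to a TATA motif (TATAAA) in Vim.
Gfap promoter, chr11.0:102897151-102897450, minus strand: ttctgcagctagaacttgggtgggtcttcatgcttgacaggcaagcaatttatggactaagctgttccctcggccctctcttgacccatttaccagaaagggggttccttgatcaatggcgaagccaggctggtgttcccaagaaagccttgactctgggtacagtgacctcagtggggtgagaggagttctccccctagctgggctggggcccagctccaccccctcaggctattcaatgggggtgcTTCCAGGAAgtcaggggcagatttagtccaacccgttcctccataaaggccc
Vim promoter, chr2.0:13574061-13574360, plus strand: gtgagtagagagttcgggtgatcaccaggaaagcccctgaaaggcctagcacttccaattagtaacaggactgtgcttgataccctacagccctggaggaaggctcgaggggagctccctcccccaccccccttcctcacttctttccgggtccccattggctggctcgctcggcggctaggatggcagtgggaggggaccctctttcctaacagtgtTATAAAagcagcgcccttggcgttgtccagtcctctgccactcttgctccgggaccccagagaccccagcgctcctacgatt
Motifs were searched on both strands, and the AP-1 motif TGANTCA was searched too. The STAT motif stood in 8.3% of 32851 promoter windows of the same length, the TATA motif in 13.6% and the AP-1 motif in 7.81%. Gfap held the only STAT match among the 6 windows, starting 2 bases before the start site. Vim and Prph each held a TATA match, 32 and 31 bases before the start site. The windows of Nes, Synm and Ina held 0 matches to these motifs, and no match overlapped another. A match describes the letters of the window and is not evidence of binding.

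Gfap encodes the astrocyte filament protein used to stain these cells. It read 12.08, 11.31 and 12.22 in Hsp72Tg MCAO and 11.94, 12.15 and 12.21 in WT MCAO, against 10.28 and 10.45 in Hsp72Tg sham and 10.05 and 10.77 in WT sham. All 6 MCAO arrays lay above all 4 sham arrays, and the lowest of them was Hsp72Tg MCAO 2. Over both genotypes Gfap rose by 1.60 (SE 0.19, limma adjusted p = 0.0113), which is 3.03-fold with a 95% confidence interval of 2.25 to 4.08.

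Vim, which encodes vimentin, had the largest change among the 9 genes. It read 10.46, 10.91 and 11.94 in Hsp72Tg MCAO and 11.15, 11.70 and 11.60 in WT MCAO, against 9.17 and 9.33 in Hsp72Tg sham and 9.37 and 9.38 in WT sham. The MCAO arrays again lay above every sham array, with Hsp72Tg MCAO 1 the lowest. Vim rose by 1.98 over both genotypes (SE 0.24, limma adjusted p = 0.0115), or 3.95-fold (interval 2.70 to 5.77).

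Nes and Synm, the partners that join GFAP and vimentin filaments, had smaller differences that did not pass. Nestin, the filament protein of neural progenitors, is encoded by Nes, which read 8.32, 8.73 and 9.10 in Hsp72Tg MCAO and 8.75, 8.91 and 8.83 in WT MCAO, against 8.27 and 8.21 in Hsp72Tg sham and 8.16 and 8.20 in WT sham. The groups did not overlap, although Hsp72Tg MCAO 1 exceeded the highest sham array by little. The difference over both genotypes was 0.56 (SE 0.13, interval 0.27 to 0.85, limma adjusted p = 0.0671). Synemin, a large filament protein that cannot form filaments alone, is encoded by Synm. It read 8.34, 10.42 and 9.44 in Hsp72Tg MCAO and 9.91, 9.16 and 9.10 in WT MCAO, against 8.35 and 8.84 in Hsp72Tg sham and 8.67 and 8.71 in WT sham. Here the groups overlapped, with Hsp72Tg MCAO 1 the lowest of all 10 arrays. The difference of Synm was 0.75 (SE 0.34, interval -0.01 to 1.52, limma adjusted p = 0.267).

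Among the neuronal genes Nefl, the neurofilament light chain on which the other chains assemble, was the one whose groups did not overlap. It read 12.69, 12.40 and 12.29 in Hsp72Tg MCAO and 12.65, 12.35 and 12.50 in WT MCAO, against 12.75 and 12.87 in Hsp72Tg sham and 12.71 and 12.77 in WT sham. Every MCAO array was thus below every sham array, although 12.69 in Hsp72Tg MCAO 1 came close to 12.71 in WT sham 1. The difference was -0.30 (SE 0.09, interval -0.51 to -0.09), or 0.814-fold, and did not pass (limma adjusted p = 0.133).

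The remaining neurofilament genes had intervals that held 0. Nefm, the medium chain, ranged from 11.56 to 12.03 in the MCAO arrays and from 11.66 to 12.21 in the sham arrays, with a difference of -0.15 (interval -0.44 to 0.14). Nefh, the heavy chain, whose tail is densely phosphorylated in axons, ranged from 10.53 to 11.16 after MCAO and from 10.44 to 11.02 after sham surgery, with a difference of 0.10 (interval -0.19 to 0.38). Ina, which encodes alpha-internexin, ranged from 11.75 to 12.12 after MCAO and from 11.53 to 12.03 after sham surgery, with a difference of 0.19 (interval -0.06 to 0.44). In these 3 genes the sham spread came mostly from Hsp72Tg sham, where replicate 1 was the lowest and replicate 2 the highest sham array. Prph, which encodes peripherin of peripheral and some brainstem neurons, ranged from 5.54 to 5.70 after MCAO and from 5.46 to 5.66 after sham surgery, with a difference of 0.04 (interval -0.12 to 0.20). These Prph values lay little above the lower quartiles of the arrays, which were 5.14 to 5.21, so a change of its level may not be measurable here.

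**Figure D1:**
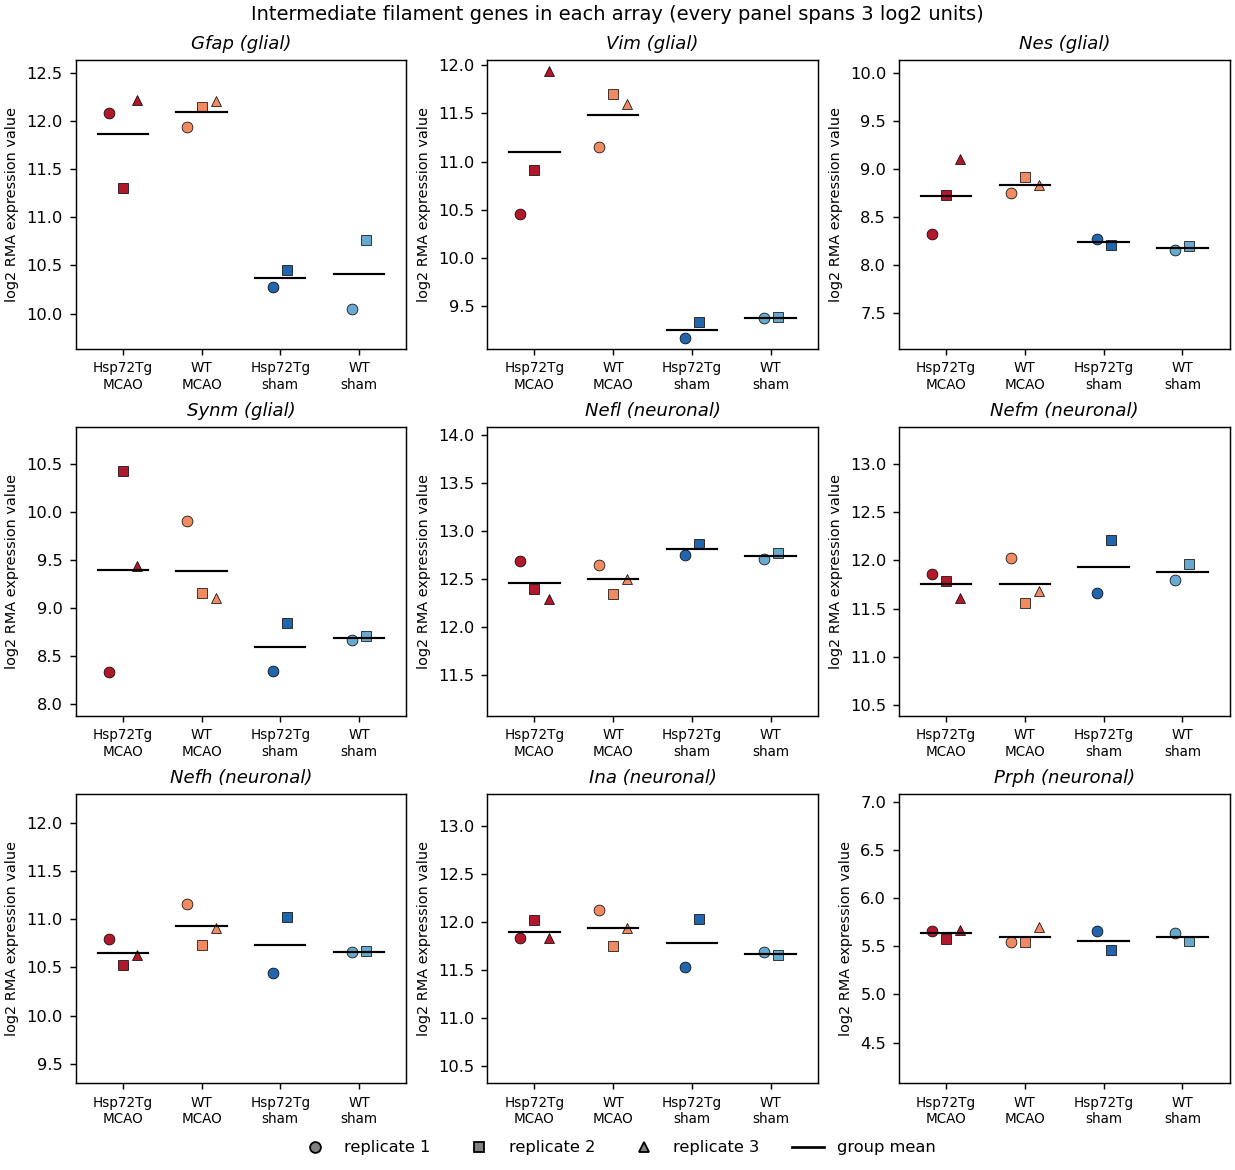
Log2 RMA expression value of each filament gene in each array, with 1 panel per gene, groups along the x axis, marker shapes for replicate numbers and lines for group means, on y axes of equal span. Gfap, Vim and Nes lie higher in all 6 MCAO arrays than in the 4 sham arrays and Nefl lies lower, while Synm is spread from 8.34 to 10.42 within Hsp72Tg MCAO.

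Counted over both genotypes, 2 of the 9 genes passed, both glial and both higher, where 1.46% of all genes passed and 1.06% passed as higher. None of the 5 neuronal genes passed in limma, and 1 of them, Nefl, had an unadjusted p under 0.05. In all 4 of the 9 genes had such a p, against 19.1% of all genes. No overlap between MCAO and sham was seen in 4 of the 9 genes, against 6.6% of all genes, with 3 of them higher (3.19% of all genes) and 1 lower (3.41%). The median change was 1.18 over the glial genes and 0.04 over the neuronal genes, beside -0.026 over all genes, whose interquartile range was -0.13 to 0.07. The neuronal median is the value of Prph, with Nefl and Nefm below 0 and Nefh and Ina above 0. Members were named with results of these data known, so these counts describe them and carry no test.

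The calls of Gfap and Vim depended on single arrays, as did the number of calls over all genes, while the size of their changes moved little. Without WT MCAO 3, both did not pass (adjusted p = 0.058 each in limma), where 0.0824% of all genes passed, against 1.46% with all 10 arrays. Both also did not pass without WT sham 1 (Gfap 1.42 and Vim 1.98) or without Hsp72Tg sham 1 (Gfap 1.56 and Vim 1.94). Vim did not pass without WT sham 2 (1.98). Each fit without a sham array leaves 1 array in its group, and in these fits most calls over all genes were lost too. Without Hsp72Tg MCAO 1, 5 of the 9 genes passed, where 12.4% of all genes did. These added Nes at 0.66 (SE 0.09, adjusted p = 0.00152), Synm at 1.02 (SE 0.23, adjusted p = 0.0194) and Nefl at -0.35 (SE 0.08, adjusted p = 0.0222). Without both arrays that stand apart, where 6.47% of all genes passed, Nes passed at 0.65 (SE 0.11, adjusted p = 0.0102), while Synm at 1.01 (adjusted p = 0.0643) and Nefl at -0.37 (adjusted p = 0.0677) did not.

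The study's own comparison sets MCAO against sham within each genotype. In Hsp72Tg the change was 1.51 for Gfap (SE 0.27, limma adjusted p = 0.284), 1.85 for Vim (SE 0.35, adjusted p = 0.306), 0.48 for Nes (SE 0.18) and 0.81 for Synm (SE 0.49). In WT it was 1.69 for Gfap (SE 0.27, limma adjusted p = 0.0878), 2.11 for Vim (SE 0.35, adjusted p = 0.0893), 0.65 for Nes (SE 0.18) and 0.70 for Synm (SE 0.49). None of the 9 genes passed in limma in either genotype, where 0.022% of all genes passed in Hsp72Tg and 0.055% in WT. At an unadjusted p under 0.05 there were 4 in Hsp72Tg (Gfap, Vim, Nes and Nefl), against 12% of all genes, and 3 in WT (Gfap, Vim and Nes), against 10.2%. Nefl was at -0.35 in Hsp72Tg (interval -0.65 to -0.05) and at -0.24 in WT (interval -0.54 to 0.06).

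These calls within a genotype changed with the arrays that entered the fit. Without Hsp72Tg MCAO 1, 4 of the 9 genes passed in Hsp72Tg, where 6.49% of all genes did, with Gfap at 1.40 (adjusted p = 0.0222), Vim at 2.17 (adjusted p = 0.0029), Nes at 0.68 (adjusted p = 0.017) and Synm at 1.34 (adjusted p = 0.0471) in limma. In WT, 3 genes passed without that Hsp72Tg array, where 2.54% of all genes did, with Gfap at 1.69 (adjusted p = 0.0103), Vim at 2.11 (adjusted p = 0.00262) and Nes at 0.65 (adjusted p = 0.0224). When only the arrays of 1 genotype were fitted, 0 of the 9 genes passed in Hsp72Tg in limma, where 0% of all genes did, with adjusted p = 0.775 for each of Gfap, Vim and Nes. In WT the same 3 genes passed in that setting, where 5.25% of all genes did, with adjusted p = 0.00495 for Gfap, 0.000788 for Vim and 0.00612 for Nes. The arrays did not overlap in 4 of the 9 genes in Hsp72Tg, against 21.9% of all genes, with 3 higher (9.05%) and 1 lower (12.8%). In WT they did not overlap in 7 of the 9, against 39%, with 6 higher (16.4%) and 1 lower (22.5%). In WT the further genes were Synm, Nefh and Ina, each higher in all 3 MCAO arrays, with changes of 0.70, 0.27 (SE 0.18) and 0.26 (SE 0.16) that did not pass.

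**Figure D2:**
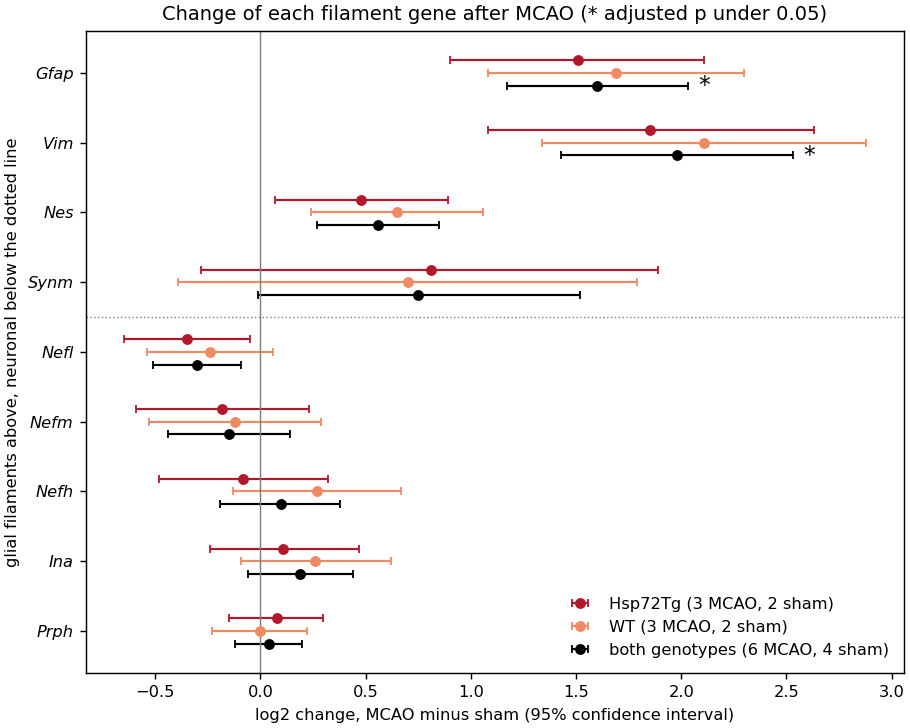
Log2 change of each filament gene, MCAO minus sham, along the x axis, with genes down the page, points for the estimates in Hsp72Tg, in WT and over both genotypes, bars for 95% confidence intervals and stars for an adjusted p under 0.05. Gfap (1.60) and Vim (1.98) passed over both genotypes, and the intervals of Nefm, Nefh, Ina and Prph hold 0 in every comparison shown.

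The genotypes were then set against each other. The MCAO change of Hsp72Tg minus that of WT was -0.18 for Gfap (interval -1.04 to 0.68), -0.26 for Vim (interval -1.35 to 0.84), -0.17 for Nes (interval -0.76 to 0.41) and 0.11 for Synm (interval -1.43 to 1.64). The widest difference among the neuronal genes was that of Nefh, at -0.35 (interval -0.91 to 0.22). In limma 0 of the 9 genes passed and 0 had an unadjusted p under 0.05, where 0% of all genes passed and 1.75% had such a p. These intervals hold differences of more than 2-fold in either direction for Synm and in 1 direction for Gfap and Vim, so they do not show that the genotypes responded alike.

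After MCAO, Hsp72Tg minus WT was -0.23 for Gfap (interval -0.77 to 0.31), -0.38 for Vim (interval -1.07 to 0.31) and -0.28 for Nefh (interval -0.64 to 0.07), and the arrays of the genotypes were apart in 0 of the 9 genes, against 7.44% of all genes. After sham surgery the differences lay between -0.12 for Vim and 0.11 for Ina. There Vim was lower and Nes higher in both Hsp72Tg arrays than in both WT arrays, so 2 of the 9 genes did not overlap, against 27% of all genes (12.8% higher and 14.2% lower). In each of these 2 comparisons 0 of the 9 genes passed in limma and 0 had an unadjusted p under 0.05, where 0% of all genes passed and 2.68% and 1.56% had such a p. Without Hsp72Tg MCAO 2 the difference of Gfap after MCAO was 0.05, and without Hsp72Tg MCAO 1 that of Nes was 0.09.

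Within Hsp72Tg MCAO the glial genes did not rank the 3 arrays in the same way. Relative to the WT sham mean, Hsp72Tg MCAO 1 stood at 1.67 for Gfap, 1.09 for Vim, 0.14 for Nes and -0.35 for Synm. Hsp72Tg MCAO 2 stood at 0.90 for Gfap, 1.54 for Vim, 0.55 for Nes and 1.73 for Synm. Hsp72Tg MCAO 3 stood at 1.81, 2.56, 0.93 and 0.75 for the same genes. So the array with the lowest Gfap had the highest Synm, and the array nearest to sham in Synm, Nes and Vim had a Gfap value within the range of the WT MCAO arrays by the probe set used, though not by the other 2 Gfap probe sets. In the same arrays Hspa1b read 12.05, 13.96 and 13.09, lowest where Synm was lowest and highest where Synm was highest. In WT MCAO the array with the highest Synm (9.91) had the lowest Hspa1b (11.85, against 12.84 and 12.73).

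The 9 genes were covered by 22 probe sets, which serve as further readings of the same RNA and not as replicates. The 3 probe sets of Gfap changed by 1.60 to 2.12 over both genotypes, with adjusted p between 0.00867 and 0.0186 in limma over all probe sets. The 3 probe sets of Vim changed by 1.94 to 2.31, with adjusted p between 0.0106 and 0.0206. Every Gfap and Vim probe set thus passed. Nes had changes of 0.27 to 0.56 over 3 probe sets and Synm of 0.31 to 0.75 over 2, none of which passed. The Nes probe set 1453997_a_at lay below the array's lower quartile in 9 of the 10 arrays. By 1418289_at Nes changed by 0.40 in Hsp72Tg and 0.14 in WT, in the reverse order of the probe set used (0.48 and 0.65).

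Single arrays differed between probe sets of Gfap. The probe set 1440142_s_at read 9.97, 9.94 and 10.88 in Hsp72Tg MCAO and 10.74, 10.82 and 10.88 in WT MCAO, against 8.72 and 8.40 in Hsp72Tg sham and 7.87 and 8.69 in WT sham. By this probe set Hsp72Tg MCAO 1 was as low as Hsp72Tg MCAO 2, and the changes were 1.70 in Hsp72Tg and 2.53 in WT. The probe set 1426509_s_at read 11.42, 10.92 and 11.65 in Hsp72Tg MCAO, against 11.49, 11.62 and 11.74 in WT MCAO, so Hsp72Tg MCAO 1 lay just below the WT MCAO arrays. The probe set 1426508_at, used above, read 12.08 in Hsp72Tg MCAO 1, with changes of 1.51 and 1.69. For Synm the second probe set, 1455610_at, read 7.83, 9.07 and 8.28 in Hsp72Tg MCAO, so it ranked these arrays as the first one did.

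The neuronal probe sets stood closer together. Nefl had differences of -0.30 and -0.26 in its 2 probe sets, and Ina of 0.19 to 0.23 in its 3. The 4 probe sets of Prph had differences of -0.08 to 0.04, and Nefm and Nefh had 1 probe set each. None of the neuronal probe sets passed.

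**Figure D3:**
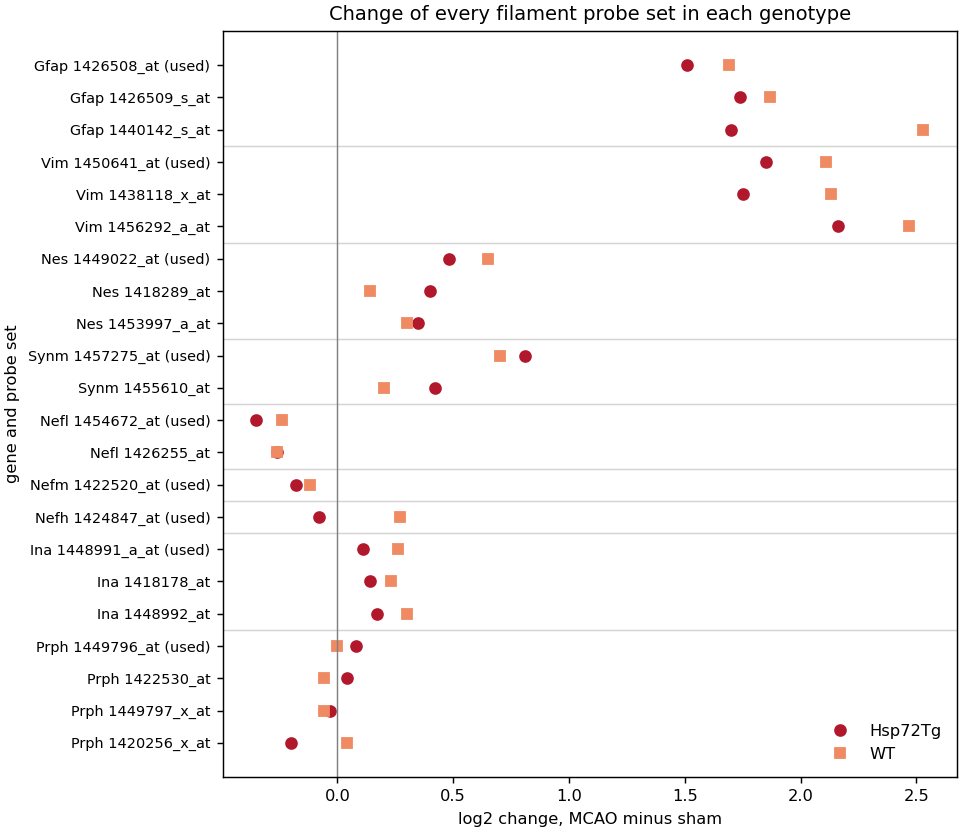
Log2 change, MCAO minus sham, along the x axis for each of the 22 filament probe sets down the page, with circles for Hsp72Tg, squares for WT and the word used beside the probe set that stands for its gene. All probe sets of Gfap and Vim lie at 1.51 or more in both genotypes, and the Gfap probe set 1440142_s_at shows the widest gap between genotypes (1.70 in Hsp72Tg and 2.53 in WT).

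Glial and neuronal filaments were compared within each array, as the mean of each class relative to its WT sham mean. The glial mean was 0.64, 1.18 and 1.51 in Hsp72Tg MCAO and 1.27, 1.32 and 1.27 in WT MCAO, against -0.15 and 0.04 in Hsp72Tg sham and -0.10 and 0.10 in WT sham. The neuronal mean was 0.05, -0.05 and -0.10 in Hsp72Tg MCAO and 0.19, -0.12 and 0.03 in WT MCAO, against -0.10 and 0.21 in Hsp72Tg sham and -0.01 and 0.01 in WT sham. The glial means of the MCAO arrays thus lay apart from those of the sham arrays, and the neuronal means overlapped. The mean glial change minus the mean neuronal change was 1.25 in Hsp72Tg, 1.25 in WT and 1.25 over both. Without Hsp72Tg MCAO 1 it was 1.52 in Hsp72Tg and 1.39 over both. These class means are described without a test, and within the classes Gfap and Vim carried most of the glial mean while Nefl and Ina differed in the sign of their values.

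**Figure D4:**
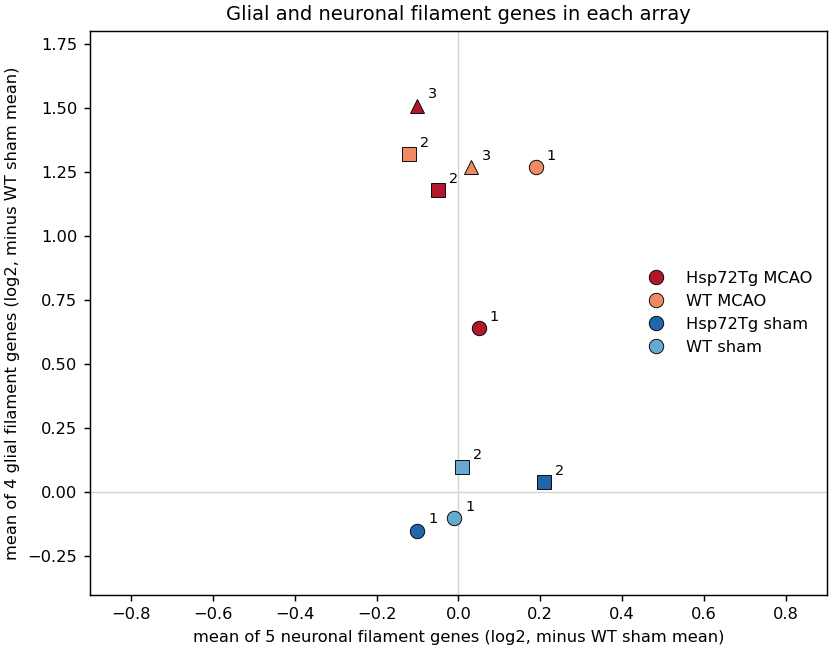
Mean of the 4 glial filament genes (y axis) against the mean of the 5 neuronal filament genes (x axis) in each array, both in log2 units relative to the WT sham mean, with colours for groups and numbers and marker shapes for replicates. The arrays separate along the glial axis, where Hsp72Tg MCAO 1 lies at 0.64 between the sham arrays and the other MCAO arrays (1.18 to 1.51).

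The markers of the cell types that make these filaments were read next, over both genotypes. Of 12 astrocyte markers, such as the glutamate transporter Slc1a2 and the water channel Aqp4, 0 passed in limma. Their median change was 0.12, and the largest was that of Sox9, at 0.58 (SE 0.15). Their mean level relative to the WT sham mean was -0.02 to 0.27 in the MCAO arrays, against -0.10 to 0.07 in the sham arrays. Of 12 neuronal markers, such as the synaptic proteins Snap25 and Syt1, 0 passed. Their median change was -0.14, and the largest was that of Camk2a, at -0.39 (SE 0.14). Their mean level was -0.34 to 0.09 after MCAO, against -0.08 to 0.02 after sham surgery, lowest in Hsp72Tg MCAO 3, which also had the lowest Nefl value (12.29). Leaving out Hsp72Tg MCAO 1, 1 of the 12 astrocyte markers was called higher and 4 of the 12 neuronal markers lower, where 12.4% of all genes passed. All markers of both lists exceeded the array's lower quartile in at least 1 array. So did all the cerebellar markers read below, so this rule does not check the labelled tissue.

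Vimentin is made by other cells too, and some of their markers also passed. Of 9 endothelial markers 2 rose, the junction genes Pecam1 (1.0, SE 0.18) and Cldn5 (0.65, SE 0.12), with a median change of 0.60 and mean levels of 0.21 to 0.87 in the MCAO arrays, against -0.08 to 0.23 in the sham arrays. The list was not uniform, with 7 of the 9 changes above 0. Cdh5 (1.13, SE 0.24) and Esam (0.79, SE 0.19) were higher in every MCAO array than in every sham array but did not pass. Slco1a4 was at -0.79 (SE 0.30), lower in every MCAO array than in every sham array, and Tek at -0.25 (SE 0.28), and neither passed. Of 10 microglia and macrophage markers 2 rose, the lysosomal gene Cd68 (1.35, SE 0.18) and the leukocyte phosphatase gene Ptprc (0.89, SE 0.17), with a median change of 0.59 and mean levels of 0.22 to 0.86, against -0.22 to 0.27. None of the 12 pericyte, smooth muscle and fibroblast markers passed in limma (median change 0.21, mean levels 0.02 to 0.40 after MCAO, against -0.14 to 0.14). Without WT sham 1, which leaves 1 WT sham array, these calls were lost, as were most calls over all genes. The median changes were then 0.49 for the endothelial, 0.44 for the microglia and macrophage and 0.10 for the pericyte, smooth muscle and fibroblast markers. Without Hsp72Tg MCAO 1, 5 endothelial, 5 microglia and macrophage and 3 pericyte, smooth muscle and fibroblast markers were called higher and 1 endothelial marker lower, where 12.4% of all genes passed. The part of these cells in the changes of Gfap, Vim and Nes was not tested. Of 7 progenitor and ependymal markers 0 passed in limma (median change -0.45). In each of these lists every marker exceeded the lower quartile in at least 1 array, a rule too weak to check which cells were present.

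Markers of other brain regions and of myelin were read as well. The 10 cerebellar markers had a median change of -0.52 with 0 passed in limma, and relative to the WT sham mean they stood at 0.97 in WT sham 1, against -1.13 to -0.88 in the other 9 arrays. The median was -0.01 without WT sham 1. Among Nefl, Nefm, Nefh and Ina the WT sham arrays differed most in Nefm, at 11.80 in WT sham 1 and 11.96 in WT sham 2. Of 10 motor and brainstem neuron markers 2 fell, the serotonin genes Tph2 (by 1.62, SE 0.17) and Slc6a4 (by 1.03, SE 0.13). The list's median was -0.08. Tph2 had a mean of 5.78 after sham surgery and of 4.16 after MCAO, which is below the lower quartiles of the arrays (5.14 to 5.21). Of the 10 markers, 3 were below the lower quartile in every array. Of 7 oligodendrocyte markers 1 fell, the myelin gene Mog (by 0.58, SE 0.12), while Cldn11 was at 0.34 (SE 0.09) and Mobp at 0.29 (SE 0.09) and the list's median was -0.01. Without WT sham 1, which leaves 1 WT sham array, some of these calls were lost, as were most calls over all genes. The median change was then -0.11 for the motor and brainstem markers and -0.06 for the oligodendrocyte markers. In the fit without Hsp72Tg MCAO 1, 2 oligodendrocyte markers were called higher and 1 lower, and 1 motor and brainstem marker higher and 2 lower, where 12.4% of all genes passed.

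Other genes of the cytoskeleton were taken from lists written for this description. The 13 measured genes of a mixed list of actin-binding, membrane-binding and calcium-binding proteins had a median change of 0.78. Of these, 7 rose over both genotypes and 0 fell (1.46% of all genes passed). They included the annexin Anxa2 (1.97, SE 0.33), moesin Msn (1.82, SE 0.23), the calcium-binding S100a6 (1.44, SE 0.26), ezrin Ezr (1.21, SE 0.22) and the calponin Cnn3 (0.81, SE 0.11), all past the threshold in limma. Without WT sham 1, which leaves 1 WT sham array, these calls were lost, as were most calls over all genes, and the median was 0.76. Without Hsp72Tg MCAO 1 the count was 9 and the median 0.89, where 12.4% of all genes passed. Of 25 microtubule and axon genes of neurons 0 passed in limma, with a median change of -0.11. The largest differences were those of the tubulin genes Tubb2b (0.43, SE 0.14) and Tubb3 (-0.38, SE 0.14) and of the kinesin motor Kif5b (0.39, SE 0.09). Without Hsp72Tg MCAO 1, 2 of the 25 were called higher and 6 lower, where 12.4% of all genes passed.

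Genes that bind, cut or modify filaments had smaller differences than Gfap and Vim, with 1 exception. Hspb1, a small heat shock protein that binds filaments, rose by 2.85 (SE 0.26) and was the only one of 14 measured filament kinases, phosphatases, proteases, chaperones and degradation factors to pass. In Hsp72Tg it was at 2.78 and did not pass (SE 0.36, limma adjusted p = 0.0754), and in WT it passed at 2.93 (SE 0.36, adjusted p = 0.0336). In the fit without Hsp72Tg MCAO 1, 7 of the 14 passed, where 12.4% of all genes did. Cryab, the related chaperone found with GFAP in Rosenthal fibres, was at 0.72 (SE 0.38), and the kinase Gsk3b at 0.44 (SE 0.12). Of 8 plakins and other filament linkers 0 passed in limma, with a median of 0.18, where Eppk1 was at 0.30 (SE 0.13), plectin Plec at 0.29 (SE 0.14) and Iffo2 at 0.24 (SE 0.13). Of 9 other intermediate filament genes 0 passed, with a median of 0.05, led by the nuclear lamin Lmna at 0.85 (SE 0.22) and the keratins Krt18 at 0.46 (SE 0.22) and Krt8 at 0.23 (SE 0.14). Without Hsp72Tg MCAO 1, 2 of these 9 passed, both higher, where 12.4% of all genes passed.

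**Figure D5:**
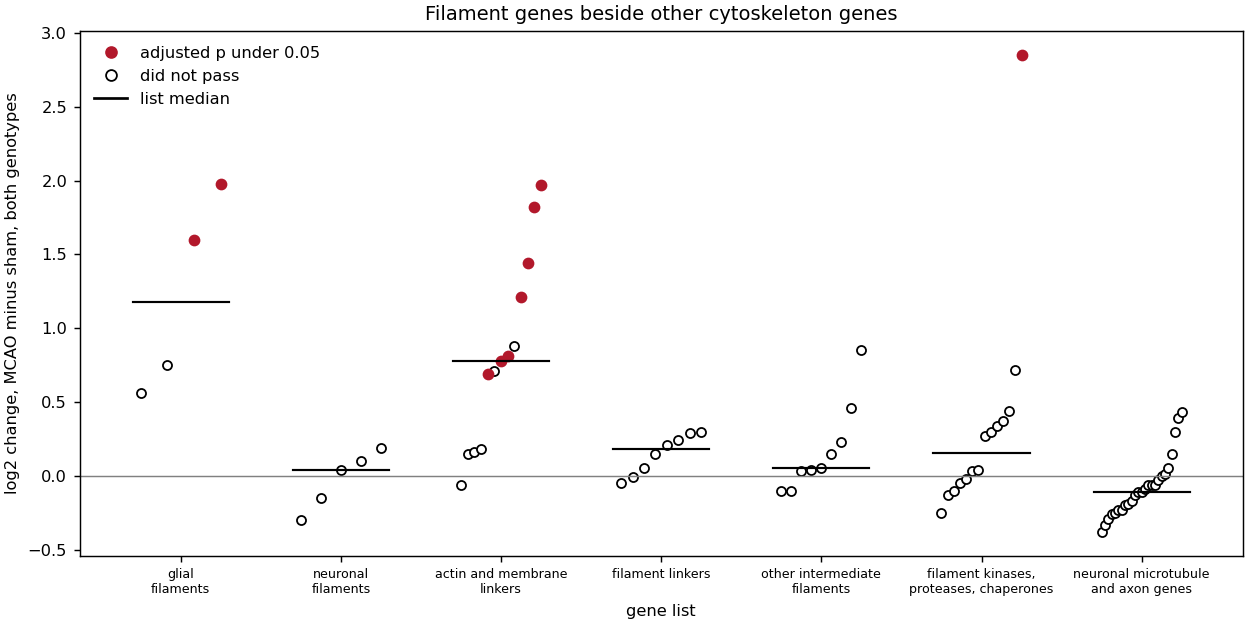
Log2 change over both genotypes, MCAO minus sham (y axis), of the filament genes and of 5 lists of other cytoskeleton genes (x axis), with 1 point per gene, filled where the gene passed and a line at each list's median. The glial filaments (1.18) and the mixed list labelled actin and membrane linkers (0.78) have the highest medians. The medians of the neuronal filaments (0.04, the value of Prph) and neuronal microtubule genes (-0.11) lie near 0.

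The genes whose pattern over the 10 arrays was closest were found by the root mean square difference between log2 values, each centred on its own mean. Closest to Gfap were Cd68 (0.276), the clotting factor carrier Vwf (0.283), the growth factor binding protein Igfbp7 (0.286) and the PDZ-LIM gene Pdlim4 (0.306). Closest to Vim were Msn (0.153), the lipid droplet gene Plin2 (0.246), the protease inhibitor A2m (0.257) and the sphingosine 1-phosphate receptor S1pr3 (0.272). Vim was the 24th closest gene to Gfap (0.426), and Gfap the 41st closest to Vim. Closest to Nes were Gnai2 (0.066), Sh3glb1 (0.077), Pabpc1 (0.080) and Adcy4 (0.085), a G protein subunit, an endophilin, a poly(A)-binding protein and an adenylate cyclase. Closest to Nefl were the tRNA synthetase gene Tarsl2 (0.053), the tubulin-modifying Ttll7 (0.055), Bmper (0.057) and the kinase Mapk8 (0.059). Nefl and Nefm are neighbours on chromosome 14 with 0 protein-coding genes between them in the RefSeq table of GRCm38.p6, and their difference was 0.142, the smallest between any 2 of the 9 genes. Among all genes, however, Nefm was only the 973rd closest to Nefl, and Nefl the 244th closest to Nefm.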

How the data were processed

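Total RNA of 10 samples of mouse hemisphere, in 4 groups given by the labels' titles, was labelled with biotin and measured on Affymetrix arrays. The authors' deposited values are log2 expression values per probe set. The submitters' processing notes name RMA, which corrects background and normalizes between arrays, with no version or settings given in the sources used here. Values lay between 3.49 and 14.7, and 0 were missing. No detection flags were used, and the number of arrays limits the precision.

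Of 45101 probe sets, 64 were controls. The platform's annotation gave 1 symbol for 34945, several for 932 and none for 9160. Symbols were checked against the RefSeq gene table, where 34741 matched and 0 changed. For each of 18193 genes the probe set of highest mean stood for the gene. Tests used limma 3.58.1 in R 4.3.3 with a mean per group over all 10 arrays (6 residual and 3.72 prior degrees of freedom), two-sided, with an adjusted p under 0.05. Probe sets were also fitted on their own. The code was tested on simulated data with known changes. Figures used Python 3.11.15 with matplotlib 3.10.9.

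The members and lists were chosen with earlier results of these data known. Named were all 9 filament genes and, per list of cytoskeleton genes, up to 5 that passed or otherwise up to 3 with the largest change. From the marker lists the genes that passed were named. For Gfap, Vim, Nes and Nefl the 4 genes of closest pattern were named. Names added after their values were seen are Mog, Cldn11, Mobp, Cryab, Gsk3b, Slc1a2, Aqp4, Sox9, Snap25, Syt1, Camk2a, Cdh5, Esam, Slco1a4 and Tek. The labels do not say that replicates are separate mice, so p-values measure only the spread between these samples, which may be technical. Replicate numbers were not used to pair the samples in the main fit. Deviations from group means correlated at -0.16 to 0.25 across genes in 13 same-numbered pairs, with 2 above 0.1. In 24 pairs of different number the range was -0.23 to 0.20, with 7 above 0.1. In a group of 2 arrays the deviations mirror each other, so these values cannot settle whether samples were paired. Alternatives were a replicate block, only the arrays compared, eBayes options, array weights, quantile or median scaling, the mean over probe sets, a filter on dim genes, an adjusted p under 0.01 and leaving out arrays. Counts of the gene lists without the doubted arrays were added after seeing the data.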

Additional observations from a re-analysis of the deposited data

How the results depend on the processing

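Gfap kept its direction in every alternative run, at 1.36 to 1.84 over both genotypes, as did Vim at 1.74 to 2.14, Nes at 0.39 to 0.66, Synm at 0.50 to 1.02 and Nefl at -0.37 to -0.25. Leaving out 1 array at a time, the number of filament genes that passed was 0 to 5 over both genotypes, 0 to 4 in Hsp72Tg and 0 to 3 in WT, and 0 in the comparisons of genotypes. Over both genotypes it was 0 at an adjusted p under 0.01, since Gfap (0.0113) and Vim (0.0115) lie above that threshold, and 1 with the replicate block, where Vim passed and Gfap was at 1.48 (adjusted p = 0.0758). The block changed no other call of a filament gene. In WT it was 3 with only the arrays compared, 3 with array weights and 1 without both WT sham 1 and Hsp72Tg MCAO 1, and in Hsp72Tg it was 3 without these 2 arrays. The cause was not tested. The count of all genes that passed over both genotypes was 266, against 11 to 2251 when 1 array was left out, 19 with the block, 1116 with array weights, 15 at an adjusted p under 0.01 and 1177 without the 2 arrays. In WT it was 10, against 955 with only the arrays compared and 1358 with array weights, and in Hsp72Tg it was 4, against 780 without the 2 arrays. The glial change minus the neuronal change was 1.13 to 1.39 over both genotypes, 1.01 to 1.52 in Hsp72Tg and 1.16 to 1.34 in WT in these fits, and the filter on dim genes removed 0 of the 9 genes.

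Signs turned only in differences that did not pass. Leaving out 1 array, changes over both genotypes ranged from -0.05 to 0.24 for Nefh and -0.01 to 0.09 for Prph. In Hsp72Tg they ranged from -0.46 to 0.09 for Nefm, -0.37 to 0.22 for Nefh, -0.14 to 0.37 for Ina and -0.03 to 0.18 for Prph, and in WT from -0.05 to 0.04 for Prph. The difference of the MCAO changes ranged from -0.54 to 0.18 for Gfap, -0.67 to 0.06 for Vim, -0.37 to 0.02 for Nes, -0.40 to 0.64 for Synm, -0.34 to 0.21 for Nefm, -0.40 to 0.10 for Ina and -0.02 to 0.18 for Prph. After MCAO, Hsp72Tg minus WT ranged from -0.40 to 0.05 for Gfap, -0.31 to 0.09 for Nes, -0.50 to 0.54 for Synm, -0.16 to 0.04 for Nefl, -0.11 to 0.13 for Nefm and -0.13 to 0.05 for Ina. After sham surgery it ranged from -0.41 to 0.31 for Gfap, -0.34 to 0.15 for Synm, -0.22 to 0.33 for Nefm, -0.23 to 0.36 for Nefh, -0.14 to 0.36 for Ina and -0.14 to 0.07 for Prph. With the mean over probe sets, Prph was at -0.02 over both genotypes, -0.03 in Hsp72Tg, -0.01 for the difference of changes and -0.02 after MCAO, Nes was at 0.05 for the difference of changes, 0.03 after MCAO and -0.01 after sham surgery, and Gfap at 0.03 after sham surgery. With array weights, Nefm was at 0.04 and Ina at 0.00 after MCAO and Prph at 0.00 in WT, as it was with quantile normalization (0.00). Without both WT sham 1 and Hsp72Tg MCAO 1, the difference of changes was 0.07 for Gfap, 0.07 for Vim and 0.05 for Nes. There Nes was at 0.09 after MCAO, Nefm at -0.03 and Prph at 0.01 after sham surgery, and Prph at 0.04 in WT.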
